A study of Mus musculus with 8 samples.

Results

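The genes described here mostly encode splicing factors, heterogeneous nuclear ribonucleoproteins (hnRNPs) and other RNA-binding proteins, some of which act outside splicing. They were chosen by symbol: every gene of the deposited table named as an SR protein (Srsf), an hnRNP (Hnrnp), a protein of the small nuclear ribonucleoproteins (Snrp), a subunit of SF3A or SF3B, a U2AF factor, a pre-mRNA processing factor (Prpf), a numbered RNA-binding motif protein (Rbm) or a CLK kinase. The rule found 109 of the 27249 genes in the table, and 107 of these were among the 22575 genes tested. The untested members were Rbm44 and the pseudogene Hnrnpa1l2-ps, each with no more than 1.73 normalized counts in any library. Srsf1, which the list of central members also holds, was not analysed here. The 109 genes comprised 10 SR proteins, 22 hnRNPs, 13 snRNP proteins, 9 SF3 subunits, 3 U2AF genes, 13 PRPF genes, 35 RBM genes and 4 CLK kinases.

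Splicing removes introns from pre-mRNA. The spliceosome assembles stepwise from small nuclear ribonucleoproteins (snRNPs). Each is an RNA with its own proteins and a ring, made of Sm proteins except on U6 RNA, where Lsm proteins form it. U2AF marks the end of the intron, and SF3A and SF3B hold the U2 snRNP on the branch point. The PRPF proteins work largely in the tri-snRNP and at the catalytic centre. SR proteins and hnRNPs bind the transcript and steer the choice of splice sites, often in opposite ways, and CLK kinases phosphorylate SR proteins. In smooth muscle, alternative splicing separates contractile isoforms of many cytoskeletal genes from those of other cells.

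Polyadenylated RNA was sequenced in 8 libraries from cultured vascular smooth muscle cells, taken from mice, which give the artery wall its tone. The 4 groups of 2 libraries were THOC5-overexpressing cells in osteogenic medium, GFP-overexpressing cells in osteogenic medium, THOC5-overexpressing cells in growth medium and GFP-overexpressing cells in growth medium. THOC5 is a subunit of the THO complex, which couples transcription to mRNA export, and GFP is green fluorescent protein, whose cells the labels otherwise call WT. The series design names 6 days of inorganic phosphate (Pi), a treatment used to make smooth muscle cells calcify, and the series asks how THOC5 changes expression during that osteogenic transition. The promoter and vector of the transgenes, the strain, and the number of animals behind the primary cells are not given in the labels.

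The libraries held between 7058681 and 10581042 recovered reads. Thoc5 itself, whose reads include both the introduced and the endogenous gene, stood at 1780.2 and 1937 normalized counts in THOC5 osteogenic libraries, 650 and 615 in GFP osteogenic libraries, 2155 and 1406 in THOC5 growth libraries and 458 and 471 in GFP growth libraries, so each library matched its label. The 8 smooth muscle markers checked (Acta2, Myh11, Tagln, Cnn1, Smtn, Lmod1, Myocd and Des) were all in the table, and none was at 0 in every library. The labels do not say that the 2 libraries of a group came from separate cultures, so the p-values measure only the spread between these libraries, which may be technical. In cultures of this kind, fewer cells of a type and less RNA per cell cannot be told apart.

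Promoter sequences of 4 members are printed because these genes carry the results below: Rbm38 had the largest change among the members tested, Hnrnpab and Rbm34 were higher in GFP osteogenic libraries than in the other 3 groups, and Hnrnpul1 was lower. RefSeq windows on GRCm38.p6 run from 250 bases before to 50 bases after the annotated start, and 91 of the 109 members matched one. Each is written 5′ to 3′ in the direction of transcription, and capitals mark the letters of any motif searched on either strand. The motifs searched were the E-box CACGTG, the NRF1 core GCGCANGC, the ETS motif CCGGAAG, the YY1 motif AAGATGGC, the CCAAT box, the cAMP response element TGACGTCA, the GC box GGGCGG, the TATA box TATAAA and the p53 half-site, and a base could belong to matches of more than 1 motif. The windows are Rbm38 at chr2:173021652-173021951 (+ strand), Hnrnpab at chr11:51606832-51607131 (- strand), Rbm34 at chr8:126971000-126971299 (- strand) and Hnrnpul1 at chr7:25754710-25755009 (- strand).
Rbm38: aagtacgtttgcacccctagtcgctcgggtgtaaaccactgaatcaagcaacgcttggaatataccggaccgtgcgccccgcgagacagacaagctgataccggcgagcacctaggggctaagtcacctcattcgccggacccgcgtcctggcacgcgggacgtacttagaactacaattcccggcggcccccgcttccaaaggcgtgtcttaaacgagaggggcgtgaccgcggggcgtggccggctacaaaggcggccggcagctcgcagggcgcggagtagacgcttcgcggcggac
Hnrnpab: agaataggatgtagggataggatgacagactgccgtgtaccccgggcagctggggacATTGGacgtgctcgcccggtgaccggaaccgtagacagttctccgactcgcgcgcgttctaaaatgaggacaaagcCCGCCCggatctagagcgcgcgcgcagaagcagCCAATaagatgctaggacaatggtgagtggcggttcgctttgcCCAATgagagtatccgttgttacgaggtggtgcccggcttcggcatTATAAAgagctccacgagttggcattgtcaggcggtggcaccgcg
Rbm34: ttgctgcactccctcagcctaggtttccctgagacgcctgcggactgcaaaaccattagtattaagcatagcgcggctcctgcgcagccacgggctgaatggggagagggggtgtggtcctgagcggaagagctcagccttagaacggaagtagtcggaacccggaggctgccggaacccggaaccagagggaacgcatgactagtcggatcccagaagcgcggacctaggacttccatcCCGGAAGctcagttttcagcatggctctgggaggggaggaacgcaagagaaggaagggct
Hnrnpul1: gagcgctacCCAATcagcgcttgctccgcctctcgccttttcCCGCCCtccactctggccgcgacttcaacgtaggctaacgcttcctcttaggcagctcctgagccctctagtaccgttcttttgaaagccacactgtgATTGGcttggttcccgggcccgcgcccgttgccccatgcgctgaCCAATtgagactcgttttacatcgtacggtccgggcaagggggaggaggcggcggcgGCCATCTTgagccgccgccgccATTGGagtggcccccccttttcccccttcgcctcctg

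None of the searched letters lay in the Rbm38 window. The Hnrnpab window held 3 CCAAT boxes, a GC box and a TATA box, the Rbm34 window held 1 ETS motif, and the Hnrnpul1 window held 4 CCAAT boxes, a GC box and a YY1 motif. The ETS letters were present for 9 of the 22 members with a window that were higher in GFP osteogenic cells (40.9%), for 26 of the 91 members with a window (28.6%) and for 16.6% of the 13355 tested genes with one. For the NRF1 core these shares were 31.8%, 29.7% and 18.9%, for the CCAAT box 31.8%, 48.4% and 42.0%, and for the GC box 50%, 60.4% and 61.5%. The E-box was present for 18.2%, 15.4% and 10.7%, and the TATA box for 13.6%, 13.2% and 10.1%. The YY1 motif, the cAMP response element and the p53 half-site were in 0 of those 22 windows, in 6.59%, 3.30% and 3.30% of the members' and in 4.40%, 3.15% and 8.89% of all. A match is a description of letters in the window and was tied to no binding data.

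The most abundant members per kilobase of annotated exon, averaged over the 8 libraries, were Prpf8 (828 normalized counts per kilobase), the protein at the catalytic centre of the spliceosome, Hnrnpab (805), Hnrnpa2b1 (790) and Hnrnpa1 (688). Together the 109 genes took 0.934% and 0.879% of reads in THOC5 osteogenic libraries, 1.10% and 1.09% in GFP osteogenic libraries, 0.885% and 0.886% in THOC5 growth libraries and 0.899% and 0.955% in GFP growth libraries. The GFP osteogenic libraries held the highest shares and did not overlap with the other groups. Shares of reads depend on the scaling to library totals. In normalized counts the gap was smaller, with sums of 93822 and 94322 in GFP osteogenic and 86353 and 89611 in GFP growth libraries. The THOC5 sums were 89820 and 86042 in osteogenic and 87324 and 88389 in growth medium. Of the members, 93 averaged at least 100 normalized counts, and within a group their 2 libraries differed by a median of 0.09 to 0.12 on the log2 scale. The lowest included Hnrnpu, between 0 and 1.73 normalized counts in every library, and Rbm42, between 0 and 2.68, which was named after its values were seen; 75.4% of the exonic bases of Rbm42 are shared with another annotated gene on the same strand. Levels of the hnRNP Hnrnpu that low are as listed in the table, and the counting rule behind them is not given in the sources used here.

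In GFP cells, more of these genes were higher than lower in osteogenic than in growth medium, and the smallest p-values among the risers belonged to Rbm28, Prpf4, Snrpb, Rbm38, Snrpd1 and Hnrnpab. By limma, with Benjamini-Hochberg adjustment over all tested genes and a threshold of 0.05, 28 of the 107 tested members rose and 5 fell. Across all tested genes, 10.3% rose and 10.6% fell. The members' median change was 0.20 on the log2 scale, beside 0.00 for all tested genes, and 84 of 107 members had a positive change. The share of risers was 26.2% among the members tested. These shares were not matched for level. An average of at least 100 normalized counts was held by 93 members and by 9208 tested genes with a known exonic length. The part of level in the gap was not tested. By class, 6 of 13 snRNP proteins, 5 of 13 PRPF genes, 4 of 9 SF3 subunits, 8 of 34 RBM genes, 3 of 21 hnRNPs and 2 of 10 SR proteins rose, while 2 RBM genes, 2 hnRNPs and 1 SR protein fell. No U2AF gene (0 of 3) and no CLK kinase (0 of 4) passed in limma, edgeR or DESeq2, with 0 and 1 at an unadjusted p under 0.05 in limma.

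The size of that count changed with the scaling and with the libraries kept. Leaving out a library leaves 1 in its group, which lowers the power to call any gene, whichever library it is. With a library left out, the members' median change stayed between 0.19 and 0.22. Scaled to library totals, 47 members rose and 2 fell, while the median of all genes moved by 0.13, and the members stood 0.22 above it, against 0.20 with the deposited scaling. Without GFP osteogenic replicate 1 the counts were 9 higher and 2 lower, without GFP growth replicate 1 11 and 2, without GFP growth replicate 2 12 and 0, and without GFP osteogenic replicate 2 19 and 4. The rises of Snrpb, Rbm38, Prpf4, Rbm28, Hnrnpab and Snrpd1 were called under every alternative run. In the authors' deposited table, 24 members were higher and 6 lower at the same threshold in this comparison, and 29 of them were also called here.

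**Figure D1:**
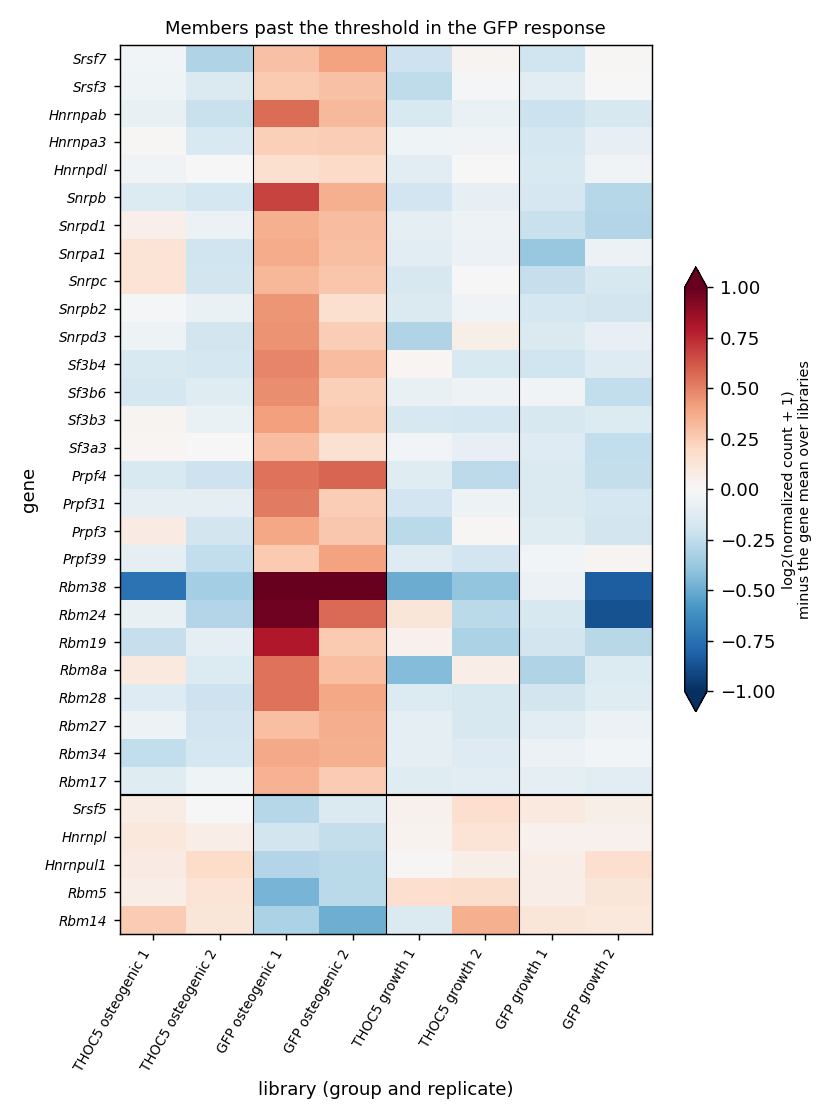
Members past the threshold in GFP cells (32 rows, 27 higher above the line and 5 lower below it) in the 8 libraries (columns), as log2 of the normalized count plus 1 minus the gene's mean over libraries, with values beyond 1 drawn in the end colours. The 2 GFP osteogenic columns stand apart from the other 6, which include both THOC5 osteogenic libraries. Rows were chosen by the GFP osteogenic against GFP growth test, so the separation from the GFP growth columns follows from that choice. The same GFP osteogenic libraries are set beside the THOC5 columns, so that separation is not independent of the choice either.

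In THOC5 cells the same medium changed no member past the threshold. By limma 0 of 107 tested members rose and 0 fell, with 3 at an unadjusted p under 0.05, and edgeR's quasi-likelihood test and DESeq2 on the recovered reads also called 0. Across all tested genes 0.532% rose and 0.00886% fell. The members' median change was -0.02, beside -0.01 for all tested genes. The 3 members with the smallest p were Prpf38a (log2 change 0.39 ± 0.12 SE, adjusted p = 0.564), the near-silent Rbm46 (1.51 ± 0.57, adjusted p = 0.793) and the pseudogene Snrpert (1.21 ± 0.55, adjusted p = 0.872). Prpf38a, a tri-snRNP factor needed before catalysis, held 234 and 228 normalized counts in THOC5 osteogenic libraries against 173 and 179.5 in THOC5 growth libraries, without overlap.

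**Figure D2:**
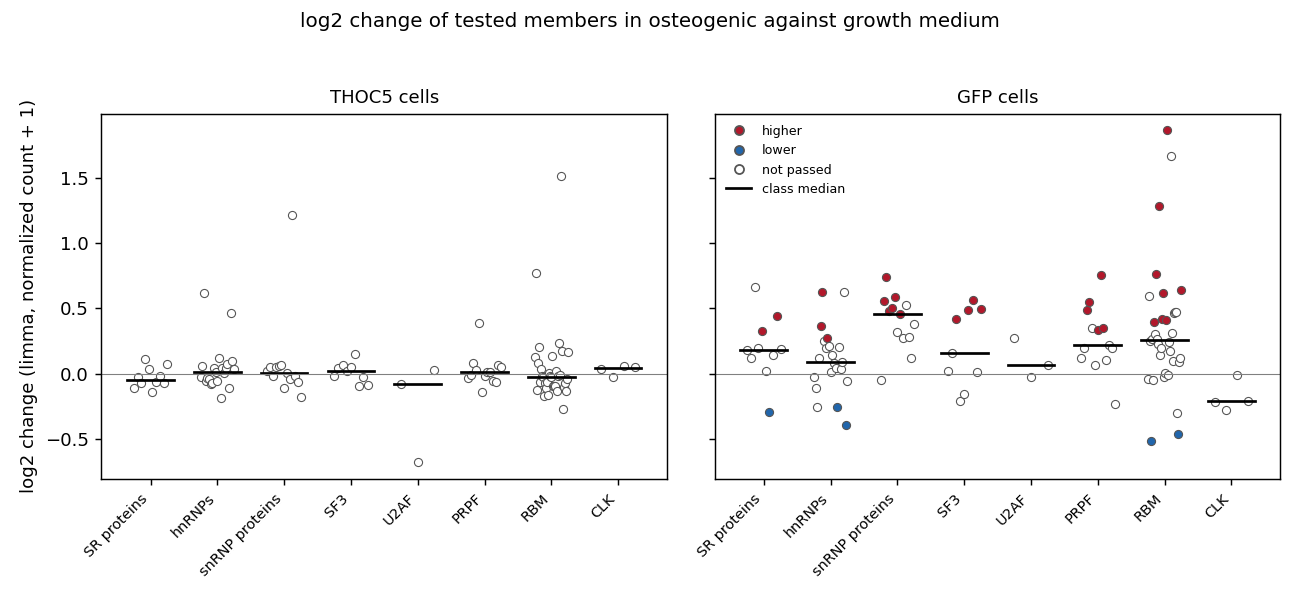
The log2 change in osteogenic against growth medium of each tested member (points; red higher, blue lower, white not past the threshold) by class, in THOC5 cells (left) and GFP cells (right), with class medians as bars. In GFP cells the snRNP class has the highest median, 0.46, and in THOC5 cells no point is past the threshold.

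Whether the medium response itself differed between THOC5 and GFP cells was tested by the interaction term. It passed for 9 of the 107 tested members: Hnrnpul1 responded more positively in THOC5 cells, and Rbm28, Rbm38, Snrpb, Hnrnpab, Prpf4, Snrpd1, Sf3b4 and Rbm34 responded more negatively. Across all tested genes 5.3% had a higher and 3.92% a lower response in THOC5 cells, against 0.935% and 7.48% of the members. For the remaining 98 tested members no difference between the responses was shown. The members' median interaction was -0.20 on the log2 scale, and the median of all tested genes was 0.00. Scaled to library totals, 0 members had a higher and 18 a lower response in limma, with the median of all genes at -0.10. The counts were 0 higher and 0 lower in limma without THOC5 osteogenic replicate 2, GFP osteogenic replicate 1, GFP growth replicate 1 or GFP growth replicate 2, and 0 higher and 2 lower without THOC5 osteogenic replicate 1 or THOC5 growth replicate 1. They were 2 higher and 9 lower without GFP osteogenic replicate 2, and 2 higher and 6 lower without THOC5 growth replicate 2. None of the 9 calls held under every alternative. Of the 8 fits that each left out 1 library, the call held in 4 for Hnrnpab, in 3 for Snrpb and Rbm28, in 2 for Rbm38, Prpf4, Sf3b4 and Hnrnpul1, in 1 for Snrpd1 and in 0 for Rbm34.

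**Figure D3:**
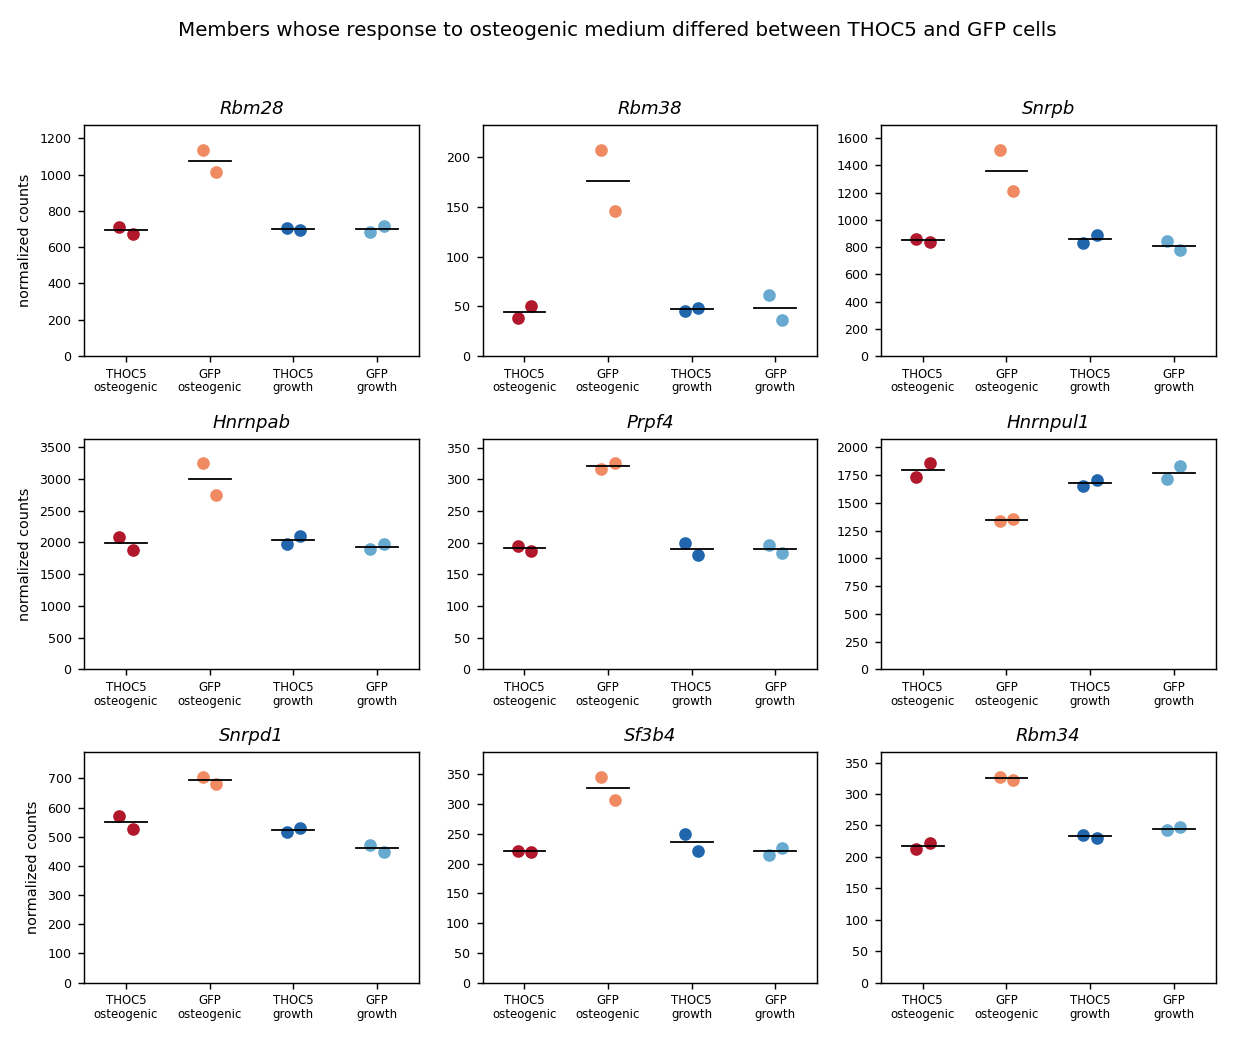
Normalized counts (vertical axis, from 0) of the 9 members whose response differed between THOC5 and GFP cells, with 1 point per library and a bar at the mean of 2 libraries. In 8 of the 9 panels the GFP osteogenic points lie highest, and for Hnrnpul1 they lie lowest. Panels were chosen by the interaction test on these same libraries, so this separation follows in part from that choice.

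Set directly against each other in osteogenic medium, THOC5 cells had lower levels than GFP cells of 29 of the 107 tested members and higher levels of 5. Across all tested genes 11.3% were higher and 10.7% lower in THOC5 cells. The members' median difference was -0.20, against 0.00 for all tested genes. This comparison shares the GFP osteogenic libraries with the medium response of GFP cells, so the values of each are given side by side below and are not independent. By class, 12 of 34 RBM genes, 4 of 10 SR proteins, 4 of 13 PRPF genes, 3 of 13 snRNP proteins, 3 of 9 SF3 subunits and 3 of 21 hnRNPs were lower, and 2 RBM genes, 2 hnRNPs and 1 PRPF gene were higher. Scaled to library totals, 1 member was higher and 53 were lower, with the median of all genes moved by -0.16 and the members 0.20 below it. The counts were 2 higher and 18 lower without THOC5 osteogenic replicate 1, 0 and 7 without THOC5 osteogenic replicate 2, 4 and 12 without GFP osteogenic replicate 1, and 4 and 19 without GFP osteogenic replicate 2. Rbm38, Prpf4, Rbm28 and Rbm34 were called lower under every alternative run. In the authors' deposited table, 5 members were higher and 28 lower, of which 33 were also called here.

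**Figure D4:**
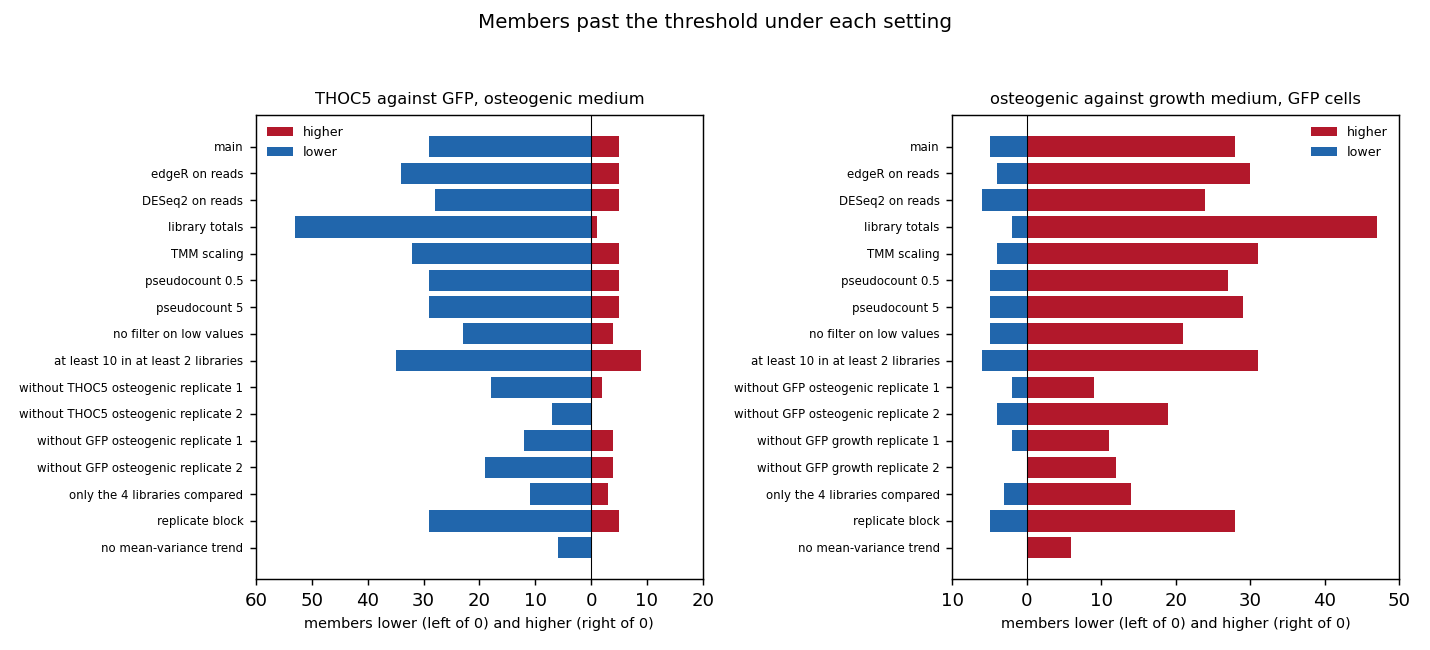
Numbers of members lower (blue, left of 0) and higher (red, right of 0) at an adjusted p under 0.05 under each setting, for THOC5 against GFP cells in osteogenic medium (left) and for osteogenic against growth medium in GFP cells (right). The bars range from 6 to 53 lower on the left and from 6 to 47 higher on the right.

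In growth medium THOC5 and GFP cells could not be separated on these genes at this replication. By limma 0 members were higher and 0 lower, with 1 at an unadjusted p under 0.05, and edgeR and DESeq2 called 0. Across all tested genes 0.00443% were higher, which is Thoc5 alone, and 0.0% were lower. The smallest p belonged to Rbm15, a subunit of the m6A RNA methylation machinery, with 258 and 272 normalized counts in THOC5 growth libraries against 312 and 360.2 in GFP growth libraries. Its groups did not overlap, but its log2 difference of -0.34 ± 0.12 SE had an adjusted p of 0.906. In osteogenic medium Rbm15 was 1.32-fold lower in THOC5 than in GFP cells (adjusted p = 0.0300, but 0.2 without GFP osteogenic replicate 2, 0.0923 without THOC5 osteogenic replicate 1 and 0.208 without THOC5 osteogenic replicate 2). Next in growth medium were Snrpd1 (0.18 ± 0.09, adjusted p = 0.906) and Srsf4 (0.35 ± 0.17, adjusted p = 0.906).

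The Sm proteins form the ring on which the snRNPs other than U6 are built. Snrpb, which encodes the SmB and SmB′ proteins, held 861 and 837 normalized counts in THOC5 osteogenic libraries, 1514 and 1211 in GFP osteogenic libraries, 828 and 892 in THOC5 growth libraries and 844 and 776 in GFP growth libraries. The GFP osteogenic libraries were highest and overlapped with no other group. Snrpb rose 1.67-fold with the medium in GFP cells (log2 0.74 ± 0.11 SE, limma adjusted p = 0.000674) and was 1.59-fold lower in THOC5 than in GFP cells in osteogenic medium (adjusted p = 0.00113). In THOC5 cells its change was -0.02 with a 95% interval of -0.25 to 0.22, and the interaction was -0.76 ± 0.15 (adjusted p = 0.0115). Snrpd1, which encodes SmD1, held 572 and 528 normalized counts in THOC5 osteogenic libraries, 707 and 682 in GFP osteogenic libraries, 517 and 531 in THOC5 growth libraries and 473 and 449 in GFP growth libraries. The GFP growth libraries were lowest here and the GFP osteogenic ones highest. It rose 1.51-fold in GFP cells (adjusted p = 0.000795), with an interaction of -0.52 ± 0.12 (adjusted p = 0.0248).

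Among the other snRNP proteins, Snrpb2, a U2 snRNP protein, rose 1.39-fold in GFP cells, at 419 and 344 normalized counts in GFP osteogenic libraries against 273 and 271 in GFP growth libraries (adjusted p = 0.0114). Its adjusted p was 0.108 without GFP osteogenic replicate 1, 0.0799 without GFP growth replicate 1 and 0.0886 without GFP growth replicate 2. In osteogenic medium, Snrpd1 was 1.26-fold lower in THOC5 than in GFP cells (adjusted p = 0.0174), but the adjusted p was 0.0951 without GFP osteogenic replicate 1 and 0.155 without THOC5 osteogenic replicate 2. Snrpd3, which encodes SmD3, was 1.37-fold lower (adjusted p = 0.0235), with adjusted p-values of 0.0502 to 0.209 when any of the 4 libraries compared was left out. Snrpa, a U1 snRNP protein, held 339.9 and 358 normalized counts in THOC5 osteogenic libraries and 317 and 333 in GFP osteogenic libraries, and passed in no comparison. Nor did Snrpn, the imprinted SmN gene, at 104 and 115 against 146 and 128; 34.1% of its exonic bases are shared with other annotated genes. In GFP osteogenic cells, replicate 1 exceeded replicate 2 for 10 of the 12 snRNP genes averaging at least 100, by a median of 0.17 on the log2 scale. The part of that library in the result was not tested beyond leaving it out.

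SF3A and SF3B clamp the U2 snRNP to the branch point. Sf3b4, an SF3B subunit that contacts the pre-mRNA near the branch point, held 222 and 219 normalized counts in THOC5 osteogenic libraries, 346 and 307 in GFP osteogenic libraries, 250.05 and 222 in THOC5 growth libraries and 214 and 226 in GFP growth libraries. The GFP osteogenic libraries lay above all others. It rose 1.48-fold in GFP cells (limma adjusted p = 0.00463), was 1.48-fold lower in THOC5 than in GFP cells in osteogenic medium (adjusted p = 0.0044), and had an interaction of -0.66 ± 0.16 SE (adjusted p = 0.027). Sf3b3, a large scaffold subunit, stood at 2267 and 2129 normalized counts in THOC5 osteogenic libraries, 2962 and 2672 in GFP osteogenic libraries, 1991 and 1969 in THOC5 growth libraries and 1992 and 2023 in GFP growth libraries. It rose 1.40-fold in GFP cells (adjusted p = 0.00159), with adjusted p-values of 0.00402 to 0.0327 whichever of the 4 libraries compared was left out. Its THOC5 osteogenic libraries also lay above the THOC5 growth libraries, but that change of 0.15 ± 0.08 did not pass (adjusted p = 0.888), and neither did the interaction (-0.34 ± 0.12, adjusted p = 0.0979). Sf3b1, the branch-point-binding subunit most often mutated in human blood disorders, went the other way without passing, at 5002 and 4616 in THOC5 osteogenic libraries against 3889 and 4275 in GFP osteogenic libraries (log2 difference 0.24 ± 0.09, adjusted p = 0.0826).

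Sf3a3, an SF3A subunit, rose 1.34-fold in GFP cells, and Sf3b6, the small subunit found at the branch point, was 1.41-fold lower in THOC5 than in GFP cells in osteogenic medium. Without GFP osteogenic replicate 1 the adjusted p of the GFP response was 0.06 for Sf3b4 and 0.0945 for Sf3a3; without GFP growth replicate 1 it was 0.0524 for Sf3b4, and without GFP growth replicate 2 it was 0.0843 for Sf3a3. For THOC5 against GFP cells it was 0.0562 for Sf3b4, 0.0674 for Sf3b3 and 0.128 for Sf3b6 without GFP osteogenic replicate 1. Without THOC5 osteogenic replicate 2 it was 0.0542, 0.11 and 0.0824 in the same order of genes, and 0.0978 for Sf3b6 without THOC5 osteogenic replicate 1. Sf3a1 had log2 changes between -0.04 and 0.02 in the 5 contrasts. The U2AF genes, whose products recognize the polypyrimidine tract and the end of the intron, passed nowhere with the deposited scaling: U2af2 held 959.6 and 899 normalized counts in THOC5 osteogenic libraries and 1122 and 992 in GFP osteogenic libraries, and U2af1 held 318 and 258 against 362 and 329. Scaled to library totals, U2af1 was higher in osteogenic than in growth medium in GFP cells (adjusted p = 0.035), and U2af1 and U2af2 were lower in THOC5 than in GFP osteogenic cells (adjusted p = 0.0251 and 0.0144).

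Prpf4, a protein of the U4/U6 snRNP, was among the clearest cases. It held 195 and 188 normalized counts in THOC5 osteogenic libraries, 317 and 326 in GFP osteogenic libraries, 199 and 180.5 in THOC5 growth libraries and 196 and 183 in GFP growth libraries. The GFP osteogenic libraries stood alone, and the other 6 lay between 180.5 and 199. It rose 1.69-fold in GFP cells (log2 0.76 ± 0.11 SE, limma adjusted p = 0.000671) and was 1.67-fold lower in THOC5 than in GFP cells in osteogenic medium (adjusted p = 0.000681). In THOC5 cells the change was 0.02, with a 95% interval of -0.23 to 0.26, and the interaction was -0.74 ± 0.16 (adjusted p = 0.014). Prpf31, its partner in the U4/U6 snRNP and a cause of retinitis pigmentosa in humans, held 393 and 395 in THOC5 osteogenic libraries, 605 and 500.0 in GFP osteogenic libraries, 369 and 406 in THOC5 growth libraries and 381 and 372 in GFP growth libraries. It rose 1.46-fold in GFP cells (adjusted p = 0.00439) and was 1.39-fold lower in THOC5 than in GFP cells (adjusted p = 0.0085), and 18.1% of its exonic bases are shared with a gene on the opposite strand, which a library made without strand marks cannot separate.

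Prpf39, a U1-associated factor, was 1.42-fold lower in THOC5 than in GFP cells in osteogenic medium (limma adjusted p = 0.00291), at 518 and 467 normalized counts in THOC5 osteogenic libraries against 664 and 735 in GFP osteogenic libraries. Prpf8 ran the other way, with 6617 and 6497 normalized counts in THOC5 osteogenic libraries against 5521 and 5333 in GFP osteogenic libraries. Its 1.21-fold higher level in THOC5 cells had an adjusted p of 0.0269, which was 0.448 with library totals, 0.0664 without GFP osteogenic replicate 2, 0.145 without THOC5 osteogenic replicate 1 and 0.13 without THOC5 osteogenic replicate 2. For Prpf31 the GFP response had an adjusted p of 0.0554, 0.0518 and 0.0649 without GFP osteogenic replicate 1, GFP growth replicate 1 and GFP growth replicate 2. Without THOC5 osteogenic replicate 2 the difference between THOC5 and GFP cells had an adjusted p of 0.0556 for Prpf39 and 0.0781 for Prpf31. For Prpf31 it was also 0.0859 without GFP osteogenic replicate 1 and 0.0675 without THOC5 osteogenic replicate 1. Prpf19, the ubiquitin ligase of the complex that activates the spliceosome, passed nowhere with the deposited scaling. It held 812 and 787 normalized counts in THOC5 osteogenic libraries and 969 and 809 in GFP osteogenic libraries. Scaled to library totals, 10 of the 13 PRPF genes were lower and 0 higher in THOC5 than in GFP osteogenic cells.

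Rbm38 had the largest change among the members tested in the response of GFP cells. Its product binds AU-rich mRNAs, and in human cells it is a p53 target that stabilizes the mRNA of the cell-cycle inhibitor p21. It held 38.2 and 50.7 normalized counts in THOC5 osteogenic libraries, 208 and 146 in GFP osteogenic libraries, 45.4 and 48.7 in THOC5 growth libraries and 61.8 and 35.9 in GFP growth libraries. All 6 other libraries lay at or below 61.8, so the GFP osteogenic pair was separate from them. The rise in GFP cells was 3.64-fold (log2 1.86 ± 0.27 SE, limma adjusted p = 0.000691), and the level in THOC5 osteogenic cells was 3.89-fold lower than in GFP osteogenic cells (adjusted p = 0.000446). In THOC5 cells the change was -0.09 with a wide 95% interval of -0.69 to 0.50, and the interaction was -1.96 ± 0.38 (adjusted p = 0.0104). Of its exonic bases, 13.4% are shared with genes on the opposite strand.

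Rbm28, a nucleolar protein also found in spliceosomal snRNPs, held 712 and 674 normalized counts in THOC5 osteogenic libraries, 1136 and 1016 in GFP osteogenic libraries, 706 and 694 in THOC5 growth libraries and 685 and 715 in GFP growth libraries. Again only the GFP osteogenic libraries stood above the rest. It rose 1.53-fold in GFP cells (limma adjusted p = 0.000575) and was 1.55-fold lower in THOC5 than in GFP cells in osteogenic medium (adjusted p = 0.000441), with an interaction of -0.63 ± 0.12 SE (adjusted p = 0.0103). Rbm34 held 213 and 222 in THOC5 osteogenic libraries, 328 and 323 in GFP osteogenic libraries, 236 and 230.2 in THOC5 growth libraries and 242 and 247 in GFP growth libraries. It was 1.49-fold lower in THOC5 than in GFP osteogenic cells (adjusted p = 0.00178) and had an interaction of -0.51 ± 0.14 (adjusted p = 0.0475). That interaction did not pass when any of the 8 libraries was left out (adjusted p = 0.0788 to 0.147) or in DESeq2 (0.14). Rbm27, linked in human cells to the decay of nuclear RNA, rose 1.33-fold in GFP cells (adjusted p = 0.00529, but 0.0524 without GFP growth replicate 1).

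Rbm5, a regulator of apoptotic splicing choices, fell with the medium in GFP cells. It held 1468 and 1543 normalized counts in THOC5 osteogenic libraries, 1017 and 1162 in GFP osteogenic libraries, 1578 and 1586 in THOC5 growth libraries and 1471 and 1526 in GFP growth libraries, so the GFP osteogenic pair was the lowest. It was 1.38-fold lower in osteogenic than in growth medium in GFP cells (limma adjusted p = 0.00297, but 0.0521 without GFP growth replicate 2) and 1.38-fold higher in THOC5 than in GFP cells in osteogenic medium (adjusted p = 0.00256, but 0.0504 without THOC5 osteogenic replicate 2). Its interaction of 0.39 ± 0.12 SE did not pass (adjusted p = 0.0712). Rbm14, a paraspeckle protein, fell 1.43-fold in GFP cells and was 1.51-fold higher in THOC5 than in GFP osteogenic cells. Its adjusted p-values of 0.0321 and 0.0157 were 0.104 and 0.068 with library totals, and 0.109 to 0.2 and 0.0722 to 0.137 when any of the 4 libraries compared was left out.

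Of the RBM genes with known roles in muscle, Rbm24, a splicing regulator of heart and skeletal muscle, stood at 9.996 and 8.45 normalized counts in THOC5 osteogenic libraries, 21.6 and 16.1 in GFP osteogenic libraries, 11.6 and 8.595 in THOC5 growth libraries and 9.32 and 5.32 in GFP growth libraries. Its rise in GFP cells (2.44-fold, limma adjusted p = 0.0479) did not pass when any of the 4 libraries compared was left out (adjusted p = 0.056 to 0.248). Rbm20, the regulator of titin splicing, lay between 5.19 and 12.4 in all 8 libraries and passed nowhere. The cold-inducible Rbm3, at 556 and 561 in THOC5 osteogenic libraries and 611 and 534 in GFP osteogenic libraries, the splicing coactivator Rbm39, at 2771 and 2685 against 2869 and 3055, and Rbm10, at 282 and 282 against 276 and 241, also passed nowhere.

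Among the hnRNPs, Hnrnpab held 2085 and 1887 normalized counts in THOC5 osteogenic libraries, 3248 and 2749 in GFP osteogenic libraries, 1981 and 2100.1 in THOC5 growth libraries and 1898 and 1970.0 in GFP growth libraries. The GFP osteogenic libraries were the highest, with no overlap. It rose 1.54-fold in GFP cells (limma adjusted p = 0.000938) and was 1.51-fold lower in THOC5 than in GFP cells in osteogenic medium (adjusted p = 0.00123), with an interaction of -0.67 ± 0.14 SE (adjusted p = 0.0121). Phykpl, on the opposite strand, shares 29.1% of its exonic bases. Hnrnpul1, an hnRNP U-like protein with a role in the DNA damage response, moved opposite: 1734 and 1857 in THOC5 osteogenic libraries, 1337 and 1359 in GFP osteogenic libraries, 1653 and 1706 in THOC5 growth libraries and 1711 and 1836 in GFP growth libraries. The GFP osteogenic pair lay below all others. It fell 1.31-fold in GFP cells (adjusted p = 0.00471) and was 1.33-fold higher in THOC5 than in GFP osteogenic cells (adjusted p = 0.00344), with an interaction of 0.49 ± 0.11 (adjusted p = 0.0207). With library totals, the last 2 had adjusted p-values of 0.0541 and 0.062.

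Hnrnpl, which binds CA-rich RNA, fell 1.19-fold in GFP cells (limma adjusted p = 0.0364) and was 1.23-fold higher in THOC5 than in GFP osteogenic cells (adjusted p = 0.0161), at 2408 and 2355 normalized counts in THOC5 osteogenic libraries against 1973 and 1899 in GFP osteogenic libraries. With library totals these adjusted p-values were 0.372 and 0.309, and with any of its 4 libraries left out the fall in GFP cells had 0.0759 to 0.119. Hnrnpa3 rose 1.29-fold and Hnrnpdl 1.21-fold in GFP cells (adjusted p = 0.00929 and 0.0454), and Hnrnpa3 and the pre-mRNA-binding Hnrnpc were 1.24-fold and 1.21-fold lower in THOC5 than in GFP osteogenic cells. Most of these calls were lost in some fits with a library left out, which also have less power. Without GFP osteogenic replicate 1 the GFP response had adjusted p = 0.0583 for Hnrnpa3, without GFP growth replicate 1 it had 0.0795, and for Hnrnpul1 it had 0.0551 without GFP growth replicate 2, while Hnrnpdl did not pass when any of its 4 libraries was left out (0.067 to 0.174). For THOC5 against GFP cells, leaving out THOC5 osteogenic replicate 2 gave 0.0609 for Hnrnpul1, 0.0933 for Hnrnpl, 0.198 for Hnrnpa3 and 0.149 for Hnrnpc. Leaving out GFP osteogenic replicate 1 gave 0.0877 for Hnrnpa3 and 0.156 for Hnrnpc, leaving out GFP osteogenic replicate 2 gave 0.0609 for Hnrnpl and 0.0736 for Hnrnpa3, and leaving out THOC5 osteogenic replicate 1 gave 0.107 for Hnrnpl and 0.147 for Hnrnpc.

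Other abundant hnRNPs did not pass with the deposited scaling. Hnrnpa1, which often represses the use of an exon, held 2227 and 2301 normalized counts in THOC5 osteogenic libraries, 2036 and 2034 in GFP osteogenic libraries, 2175 and 2182.2 in THOC5 growth libraries and 2161 and 2237 in GFP growth libraries. Its log2 difference of 0.15 between THOC5 and GFP cells in osteogenic medium, where the groups did not overlap, had an adjusted p of 0.178 in limma. Hnrnpa2b1 lay between 4623 and 5729, and Hnrnpk, the poly(C)-binding member, between 2731 and 3054 over all 8 libraries, and neither passed in any comparison.

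Of the 10 SR proteins, 9 had a positive change in GFP cells, of which 2 passed, and Srsf5 alone had a negative one, which also passed. Srsf7 held 986 and 819 normalized counts in THOC5 osteogenic libraries, 1233 and 1331 in GFP osteogenic libraries, 869.9 and 1026 in THOC5 growth libraries and 879 and 1014 in GFP growth libraries. Srsf3, which also couples splicing to mRNA export, held 909 and 845, 1118 and 1147, 785 and 927, and 871 and 937 in the same groups, and for both genes the GFP osteogenic pair was highest without overlap. They rose 1.36-fold and 1.25-fold in GFP cells (limma adjusted p = 0.0214 and 0.0347) and were 1.43-fold and 1.29-fold lower in THOC5 than in GFP osteogenic cells (adjusted p = 0.00937 and 0.0183). Srsf10, a splicing repressor when dephosphorylated, was 1.37-fold lower in THOC5 than in GFP osteogenic cells (adjusted p = 0.00718). Srsf5 fell 1.22-fold in GFP cells (adjusted p = 0.0315), at 1218 and 1344 in GFP osteogenic libraries against 1587 and 1547 in GFP growth libraries. No SR protein passed the interaction test in limma (0 of 10, with 1 at an unadjusted p under 0.05), whereas edgeR and DESeq2 called 1 lower each.

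These SR calls were fragile. In GFP cells the adjusted p was 0.0787 to 0.203 for Srsf7 and 0.104 to 0.193 for Srsf3 with any of the 4 libraries compared left out. For Srsf5 it was 0.184, 0.142 and 0.114 without GFP osteogenic replicate 1, GFP growth replicate 1 and GFP growth replicate 2, and 0.249 with library totals. For THOC5 against GFP cells, Srsf3 had 0.0651 to 0.168, and without THOC5 osteogenic replicate 2 Srsf7 had 0.141 and Srsf10 had 0.105. Without GFP osteogenic replicate 1 Srsf7 had 0.0609, and without GFP osteogenic replicate 2 Srsf7 had 0.0917 and Srsf10 had 0.0634. In THOC5 osteogenic cells, replicate 1 exceeded replicate 2 for 9 of the 9 SR genes averaging at least 100, by a median of 0.21 on the log2 scale. Over all 93 members with that average, replicate 1 was higher for 67, and the median difference was 0.08. Srsf2 passed nowhere, at 1231 and 1062 in THOC5 osteogenic libraries and 1196 and 1301 in GFP osteogenic libraries, and 25.3% of its exonic bases are shared with other genes.

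With all 8 libraries, the CLK kinases did not pass in any comparison by limma, edgeR or DESeq2. Without GFP osteogenic replicate 2, Clk1 passed as lower in osteogenic than in growth medium in GFP cells (log2 -0.36, adjusted p = 0.0418) and as higher in THOC5 than in GFP osteogenic cells (log2 0.36, adjusted p = 0.0414). Clk1 held 1671 and 1753 normalized counts in THOC5 osteogenic libraries, 1333 and 1629 in GFP osteogenic libraries, 1750.3 and 1597 in THOC5 growth libraries and 1776 and 1651 in GFP growth libraries. Clk4 held 603 and 647, 508 and 587, 669 and 545, and 613 and 647 in the same groups. The 4 kinases had a median change of -0.21 in GFP cells, with 0 of 4 positive; scaled to library totals, 1 of the 4 was positive and the median was -0.07, and 1 was positive in edgeR. Clk2, named after its values were seen, had the largest difference between THOC5 and GFP cells in osteogenic medium, 0.32 ± 0.12 SE (limma adjusted p = 0.0724).

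A list of other splicing genes, outside the symbol rule, held 96 genes, of which 89 were tested, and 25 rose and 7 fell in GFP cells by limma, with a median change of 0.16, beside 10.3% and 10.6% of all tested genes. In osteogenic medium 6 were higher and 29 lower in THOC5 than in GFP cells, beside 11.3% and 10.7% of all tested genes, and the interaction passed for 1 higher and 13 lower, beside 5.3% and 3.92%. In THOC5 cells and in growth medium 0 passed in limma, with 2 at an unadjusted p under 0.05 in each. Elavl1, the mRNA-stabilizing protein HuR, held 816 and 748 normalized counts in THOC5 osteogenic libraries, 1337 and 1199 in GFP osteogenic libraries, 874 and 775 in THOC5 growth libraries and 874 and 807 in GFP growth libraries. It rose 1.51-fold in GFP cells (adjusted p = 0.00149) and was 1.62-fold lower in THOC5 than in GFP osteogenic cells (adjusted p = 0.000491). Srpk1, the kinase that sends SR proteins into the nucleus, rose 1.48-fold (adjusted p = 0.00169), and Lsm8, of the ring on U6 RNA, rose 1.60-fold (adjusted p = 0.00217). In the opposite direction, Esrp2, an epithelial splicing regulator, fell 2.13-fold in GFP cells, at 66.6 and 98.4 in GFP osteogenic libraries against 183 and 165 in GFP growth libraries (adjusted p = 0.00148, but 0.0524 without GFP growth replicate 1). It was 2.32-fold higher in THOC5 than in GFP osteogenic cells (adjusted p = 0.000688), and it was the gene with the higher interaction.

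Length and level went with the change in GFP cells. Over the 93 members averaging at least 100, Spearman's rho between the log2 change and the exonic length was -0.32, and between the change and the mean level -0.34. Over the 9208 genes with the same minimum these were -0.15 and -0.15. The length trend was not particular to this response. For THOC5 against GFP cells in growth medium, where no member passed, the members' values were -0.40 for length and -0.20 for level. In osteogenic medium they were 0.13 and 0.28, and in the THOC5 response -0.03 and 0.11. These are descriptions across genes, which are not independent replicates and share the same libraries, and shorter genes hold fewer reads.

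Summed markers of several cell types moved with the same contrast. Each sum adds normalized counts, so its most abundant gene weighs most. That gene was Acta2 for smooth muscle, Dcn for adventitial fibroblast, Cd14 for macrophage, Vwf for endothelium and Tnnt2 for striated muscle. The highest value of any single gene was 25293.3, 16100.5, 776.2, 106.2 and 69.2 in the same order of lists. A sum therefore does not show that every gene of its list moved. The summed level of the 8 smooth muscle markers was 24998.8 to 26850.7 normalized counts in THOC5 osteogenic libraries, 11924.9 to 13801.1 in GFP osteogenic libraries, 30386.9 to 31012.2 in THOC5 growth libraries and 24495.0 to 28390.7 in GFP growth libraries. For the 6 adventitial fibroblast markers it was 15205.6 to 16484.9, 4718.8 to 6581.2, 18587.5 to 19339.5 and 14698.1 to 17068.0 in the same groups, and for the 6 macrophage markers 960.5 to 1138.6, 678.9 to 694.5, 1050.5 to 1230.0 and 946.5 to 1181.7. All 3 sums were lowest in the GFP osteogenic libraries, without overlap. The sum of the endothelial markers (4 of 6 in the table) was also lowest there, at 83.5 to 87.2, 36.7 to 55.4, 90.7 to 120.7 and 75.8 to 116.5 in the same groups. The sum of the striated muscle markers (3 of 4) was highest there, at 31.0 to 34.5, 51.0 to 70.1, 29.9 to 33.4 and 26.6 to 38.5. The Schwann markers (3 of 4) summed to 16.9 to 22.7, 9.5 to 16.1, 22.9 to 29.0 and 18.6 to 33.2, lowest in GFP osteogenic libraries, and the adipocyte markers (2 of 4) to 96.3 to 128.0 over the 8 libraries, with groups that overlapped, and no marker in the table was at 0 in every library. The part of these shifts in the changes of the splicing genes was not tested.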

How the data were processed

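RNA-seq libraries (TruSeq V2 kit per the labels, which does not mark strand) of 8 samples were used, and groups follow the sample titles. The deposited table gives, per gene and library, a normalized signal; the authors divided read counts by library-specific size factors, since values multiplied back by them came out whole in 100% of cases (tolerance 0.01). It also holds the authors' log2 fold changes and their adjusted p-values, per the file headers. FastQC, Bowtie2, MACS2, SAMtools and mm10 are named per the submitters' processing notes; how reads were aligned and counted, and on which annotation, was not given in the sources used here.

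limma 3.58.1 (R 4.3.3) with its trend option was fitted to log2(value + 1) of 22575 genes reaching 1 in 2 or more libraries, in 1 fit of all 8 libraries and 4 groups (4 residual degrees of freedom), giving 5 contrasts. P-values were adjusted by Benjamini-Hochberg over all genes tested per contrast (threshold 0.05). Fold changes on this scale understate low genes. A log2 change is given ± its SE, for 2 libraries against 2, while an interaction takes all 4 groups. The SE rests on the spread estimated in the fit of all 8 libraries. A member said to pass nowhere passed in none of the 5 contrasts of that fit with the deposited scaling. Other scalings are not covered by that wording. edgeR 4.0.16 and DESeq2 1.42.0 on the recovered reads, other scalings, pseudocounts, filters and left-out libraries were alternatives. On the recovered reads edgeR called 2529 genes higher and 2311 lower in the GFP response, 2605 higher and 2814 lower for THOC5 against GFP cells in osteogenic medium, 144 and 15 in the THOC5 response, 1 and 0 in growth medium, and 1304 and 1154 for the interaction. The limma and edgeR fits of the contrasts between 2 groups were tested on simulated data. The interaction and DESeq2 were not.

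The members, gene lists and tests were chosen with earlier results of these data known. Named were a list of central members, up to 3 risen and 3 fallen members per class and contrast by smallest p with libraries beyond both of the other group, the 3 smallest p where none passed, and up to 4 other splicing genes per direction; of those, the values of a few are given. Coordinates and exon overlaps come from GENCODE M21 on GRCm38. A read count of 0 allows up to 3 reads, which covers counting error only. The values of 1 member are not reported here, though counts over members include it. The RNA immunoprecipitation named in the design was not analysed here.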

Additional observations from a re-analysis of the deposited data

Results flagged for a closer look

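For 9 members the response to osteogenic medium differed between THOC5 and GFP cells by the interaction term of limma (adjusted p under 0.05 over all 22575 genes tested). The log2 interaction, which is the THOC5 response minus the GFP response, was -1.96 for Rbm38, -0.76 for Snrpb, -0.74 for Prpf4, -0.67 for Hnrnpab, -0.66 for Sf3b4, -0.63 for Rbm28, -0.52 for Snrpd1, -0.51 for Rbm34 and 0.49 for Hnrnpul1. Among the members, 0.935% passed as higher and 7.48% as lower, beside 5.3% and 3.92% of all tested genes. With 1 library left out, their adjusted p-values reached 0.103 for Rbm38, 0.116 for Snrpb, 0.0964 for Prpf4, 0.107 for Hnrnpab, 0.132 for Sf3b4, 0.0911 for Rbm28, 0.14 for Snrpd1, 0.147 for Rbm34 and 0.134 for Hnrnpul1.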

How the results depend on the processing

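Of 56 changes past the threshold among the named members, 10 held under every alternative, 46 were lost under at least 1, and 0 reversed; 45 were lost without limma's mean-variance trend. In the GFP response (28 higher, 5 lower), library totals gave 47 and 2, only the 4 libraries compared 14 and 3, no trend 6 and 0, and leaving out 1 library 9 to 19 and 0 to 4. For THOC5 against GFP cells in osteogenic medium (5 higher, 29 lower) these gave 1 and 53, 3 and 11, 0 and 6, and 0 to 4 and 7 to 19, and a filter of at least 10 in at least 2 libraries gave 9 higher. For the interaction (1 higher, 8 lower), library totals gave 0 and 18, no trend 0 and 0, that filter 2 and 14, edgeR 14 lower, and leaving out 1 library 0 to 2 and 0 to 9. The causes of these shifts were not tested. The THOC5 response and the growth-medium comparison gave 0 and 0 under every alternative run.

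Libraries with the same replicate number did not deviate together over all tested genes (correlations of -0.02 to 0.05). That check pools all tested genes, low ones included, so it cannot exclude that the numbers mark shared cultures. With the replicate block the counts were 28 and 5, 5 and 29, and 1 and 8. All 33 and 34 calls of the first 2 were shared with the fit without it, but 8 of the 9 interaction calls were: Rbm34 did not pass with the block (adjusted p = 0.0571). At 3 reads or fewer, as for Hnrnpu, Rbm42 and Rbm46, no change can be read.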
